A study of Homo sapiens with 6 samples.

Results

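Heat shock chaperone genes were examined across 6 gene expression arrays of H9, an established human embryonic stem cell line. The set comprised 10 listed genes, HSPA1A, HSPA1B, HSPA8, HSPH1, DNAJB1, HSP90AA1, HSPB1, HSPD1, HSPE1 and BAG3. They were selected on values of these same arrays, among them the lower HSPA1A and HSPA1B levels of H2A.X-transduced clones, so the differences of these genes are given as descriptions with no p-value. Of the 10 genes, 6 had a named row on the array, among 14884 genes with a named row in all. HSPA8, DNAJB1, HSP90AA1 and HSPE1 had none and were not analysed here. HSPA1A and HSPA1B had 5 rows each and HSPH1, HSPB1, HSPD1 and BAG3 had 1 row each, and the brightest row was used for each gene unless stated.

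All 6 samples were H9 cells that had been transduced with a lentiviral vector, sorted for GFP and the pluripotency surface antigen TRA 1-60, plated as single cells on mouse embryonic fibroblasts and expanded from single colonies, in fibroblast-conditioned medium to which bFGF had been added at 8 ng/ml. In gamma_ON clones the vector added H2A.X bearing S139E, where glutamate mimics the phosphate that the serine receives at DNA breaks. In gamma_OFF clones it added H2A.X bearing both T136A and S139A, so that neither residue can take a phosphate. CTRL clones received only the eGFP vector. Each group had 2 arrays. The EF1α promoter of the vector drove each transgene with eGFP behind an internal ribosome entry site. No group carried added H2A.X without a substitution, so an effect of the substitutions and one of added H2A.X cannot be told apart. The labels do not say whether replicates were separate clones or separate cultures, so the SE and p-values cover no more than the spread of these samples and could be technical.

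Heat shock proteins are chaperones that bind unfolded proteins, and many of their genes are switched on by the transcription factor HSF1 when misfolded protein builds up. HSF1 binds heat shock elements, which are runs of nGAAn units in alternating orientation. HSP70 proteins take up exposed hydrophobic stretches, HSP40 proteins such as DNAJB1 bring them their clients, and HSP110 and BAG proteins release bound nucleotide from them. Pluripotent stem cells are known for high constitutive chaperone levels.

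HSPA1A and HSPA1B were lower in both H2A.X-transduced groups than in CTRL clones. These neighbouring genes in the major histocompatibility region of chromosome 6 encode the stress-inducible HSP70 and are near-identical copies, so the arrays may not separate them and each gene's own level is uncertain. HSPA1A had log2 levels of 9.81 and 9.75 on the gamma_ON arrays, 10.003 and 10.161 on the gamma_OFF arrays, and 10.79 and 11.07 on the CTRL arrays. Every gamma_ON and every gamma_OFF array lay below every CTRL array, and both gamma_ON arrays lay below both gamma_OFF arrays. HSPA1A averaged 9.78 ± 0.04 in gamma_ON, 10.08 ± 0.11 in gamma_OFF and 10.93 ± 0.19 in CTRL clones (log2, SD, n = 2 each). Its log2 difference was -1.15 (SE 0.13) for gamma_ON against CTRL, or 2.22-fold lower, and -0.85 (SE 0.13) for gamma_OFF against CTRL, or 1.80-fold lower. In bulk RNA, fewer cells with a high level and less RNA per cell cannot be told apart.

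HSPA1B had log2 levels of 10.06 and 9.92 on the gamma_ON arrays, 10.18 and 10.35 on the gamma_OFF arrays, and 11.13 and 11.32 on the CTRL arrays. The order of the groups was that of HSPA1A, again with no overlap. The log2 difference of HSPA1B was -1.24 (SE 0.13) for gamma_ON against CTRL and -0.96 (SE 0.13) for gamma_OFF against CTRL. Between gamma_ON and gamma_OFF clones the log2 difference was -0.30 for HSPA1A and -0.28 for HSPA1B (SE 0.13 each), so the separation between the H2A.X groups was smaller than that of either from CTRL. These last sizes depended on the scaling of the arrays. After quantile normalization the gamma_ON minus gamma_OFF difference was -0.49 for HSPA1A and -0.49 for HSPA1B, and with arrays rescaled to one median and SD it was -0.52 and -0.50.

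The other rows of both genes gave the same order. Over all 10 rows, of which 3 HSPA1A rows held the same values, the log2 difference lay between -1.46 and -1.15 for gamma_ON against CTRL, between -1.17 and -0.85 for gamma_OFF against CTRL, and between -0.30 and -0.24 for gamma_ON against gamma_OFF. In all 10 rows every gamma_ON array lay below every gamma_OFF array, and every gamma_OFF array lay below every CTRL array. The rows are not replicates, since they come from the same 6 arrays and can share probes. The range of HSPA1A over the 6 arrays was 1.32 log2 units and exceeded that of 98.2% of all genes, and the range of HSPA1B was 1.4 and exceeded that of 98.6%, against a median range of 0.49.

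**Figure D1:**
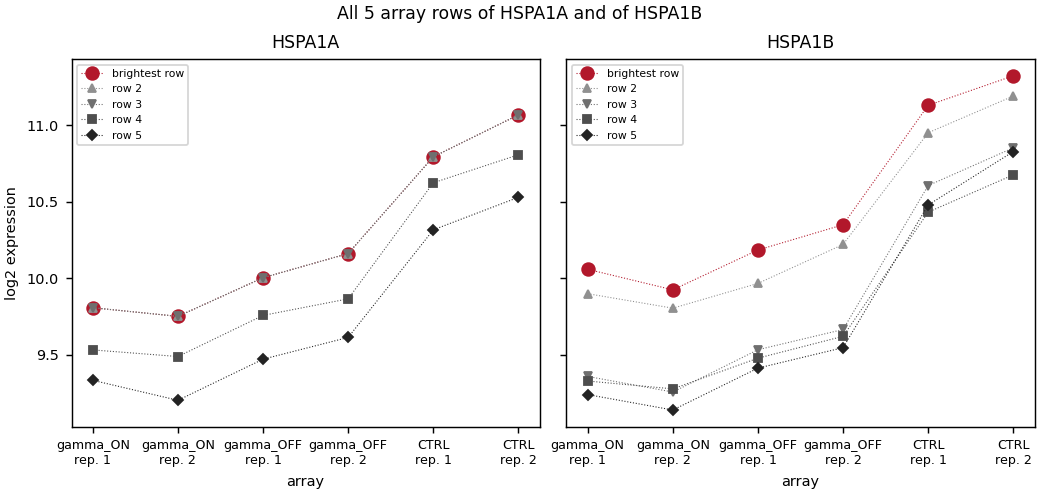
Log2 expression (vertical axis) of all 5 rows of HSPA1A and all 5 rows of HSPA1B on each array (horizontal axis, gamma_ON, gamma_OFF, CTRL), with 1 marker shape per row, the brightest row as large red circles, and dotted lines joining the points of 1 row as a guide to the eye. In every row the gamma_ON points lie lowest and the CTRL points highest.

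The promoters are shown because HSF1 acts through heat shock elements in this stretch, and to set the near-identical pair beside a co-chaperone gene that fell with it and HSPH1, which differed little. RefSeq windows of the 250 bases before the start site (GRCh38.p14) were searched on both strands for the paired units GAANNTTC and TTCNNGAA and for the TATAAA box; the capitals below mark these matches. HSPA1A lies at chr6:31815293-31815542 on the plus strand and HSPA1B at chr6:31827488-31827737 on the plus strand. CHORDC1, an HSP90 co-chaperone described below, lies at chr11:90223050-90223299 on the minus strand, and HSPH1 at chr13:31162389-31162638 on the minus strand.
HSPA1A: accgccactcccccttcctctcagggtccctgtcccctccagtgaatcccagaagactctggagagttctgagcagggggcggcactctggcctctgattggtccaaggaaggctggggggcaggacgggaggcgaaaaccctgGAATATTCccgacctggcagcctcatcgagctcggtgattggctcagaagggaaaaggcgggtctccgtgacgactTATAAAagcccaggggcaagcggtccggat
HSPA1B: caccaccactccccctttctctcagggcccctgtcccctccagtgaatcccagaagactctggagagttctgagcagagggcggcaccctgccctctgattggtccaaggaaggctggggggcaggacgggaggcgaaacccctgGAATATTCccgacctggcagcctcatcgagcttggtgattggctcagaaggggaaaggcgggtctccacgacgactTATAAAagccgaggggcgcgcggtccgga
CHORDC1: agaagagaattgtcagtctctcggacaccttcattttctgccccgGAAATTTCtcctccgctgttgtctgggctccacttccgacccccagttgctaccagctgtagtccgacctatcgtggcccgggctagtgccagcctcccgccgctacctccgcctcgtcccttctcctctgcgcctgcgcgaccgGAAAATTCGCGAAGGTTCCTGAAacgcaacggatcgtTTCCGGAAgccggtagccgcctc
HSPH1: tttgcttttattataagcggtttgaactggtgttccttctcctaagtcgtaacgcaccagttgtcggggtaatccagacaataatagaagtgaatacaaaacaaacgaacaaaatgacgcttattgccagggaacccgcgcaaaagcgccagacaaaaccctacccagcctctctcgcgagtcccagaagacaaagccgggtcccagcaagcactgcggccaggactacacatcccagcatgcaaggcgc

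The HSPA1A and HSPA1B windows were identical at 235 of 249 aligned bases, or 94.4%. Each held 1 paired unit, GAATATTC, beginning 106 bases before the HSPA1A start and 105 bases before the HSPA1B start, and 1 TATAAA box. The CHORDC1 window held 6 paired units, several of which overlap each other. The HSPH1 window held none of these letters, which says only that they are not in this stretch. At least 1 paired unit stood in a window of 7 of the 10 listed genes (7 of their 14 windows), against 11.6% of all 35116 windows, and TATAAA stood in 10.7% of all windows. HSPB1 held 1 paired unit and a window of HSPD1 held 3, and their log2 differences from CTRL are given next. HSPA1L, whose window overlaps that of HSPA1A, held the same GAATATTC, beginning 161 bases before its own start. It differed little from CTRL, as given below. HSPA4L, also described below, held 1 paired unit in a window and none in its other windows. The genes printed were picked by their levels, and a link between the units and the levels was not tested.

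The other 4 measured chaperone genes differed from CTRL by at most 0.13 on the log2 scale in group means, and 1 gamma_OFF array lay below the rest for HSPH1 and HSPD1. HSPH1, the HSP110 exchange factor of HSP70, had log2 levels of 11.01 and 10.96 in gamma_ON, 11.03 and 10.60 in gamma_OFF, and 10.82 and 10.89 in CTRL clones. Both gamma_ON arrays were slightly above both CTRL arrays, while the gamma_OFF arrays lay on either side of them. The HSPH1 log2 difference from CTRL was 0.13 for gamma_ON and -0.04 for gamma_OFF (SE 0.15 each).

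HSPD1, the HSP60 chaperonin of mitochondria, had log2 levels of 9.74 and 9.70 in gamma_ON, 9.68 and 9.34 in gamma_OFF, and 9.58 and 9.65 in CTRL clones. Its log2 difference from CTRL was 0.11 for gamma_ON and -0.11 for gamma_OFF (SE 0.14 each). As with HSPH1, the low value was that of gamma_OFF replicate 2, and without that array the gamma_OFF minus CTRL difference was 0.18 for HSPH1 and 0.06 for HSPD1. Without gamma_OFF replicate 1 it was -0.25 for HSPH1 and -0.27 for HSPD1. HSPA9, the mitochondrial HSP70, which is no member of the set, had the same low array, with 12.046 and 12.003 in gamma_ON, 12.07 and 11.68 in gamma_OFF, and 11.93 and 12.04 in CTRL clones (chosen after its values were seen).

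HSPB1, the small heat shock protein HSP27, which holds unfolded proteins without ATP, had log2 levels of 10.94 and 10.83 in gamma_ON, 10.81 and 11.04 in gamma_OFF, and 11.01 and 11.01 in CTRL clones. Its log2 difference from CTRL was -0.12 for gamma_ON and -0.08 for gamma_OFF (SE 0.12 each). BAG3, a co-chaperone that couples HSP70 to autophagy and is itself an HSF1 target, had log2 levels of 8.08 and 8.05 in gamma_ON, 7.88 and 8.09 in gamma_OFF, and 8.07 and 8.10 in CTRL clones. The BAG3 log2 difference from CTRL was -0.02 for gamma_ON and -0.10 for gamma_OFF (SE 0.12 each), and its whole range over the 6 arrays, 0.22, exceeded that of only 6.73% of genes. The sign of the gamma_OFF minus CTRL difference was not fixed for these 4 genes: after quantile normalization it was 0.11 for HSPH1, 0.032 for HSPB1, 0.046 for HSPD1 and 0.025 for BAG3. Between gamma_ON and gamma_OFF their log2 differences were 0.17 for HSPH1, -0.04 for HSPB1, 0.21 for HSPD1 and 0.08 for BAG3, and that of each but HSPB1 turned below 0 after quantile normalization.

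**Figure D2:**
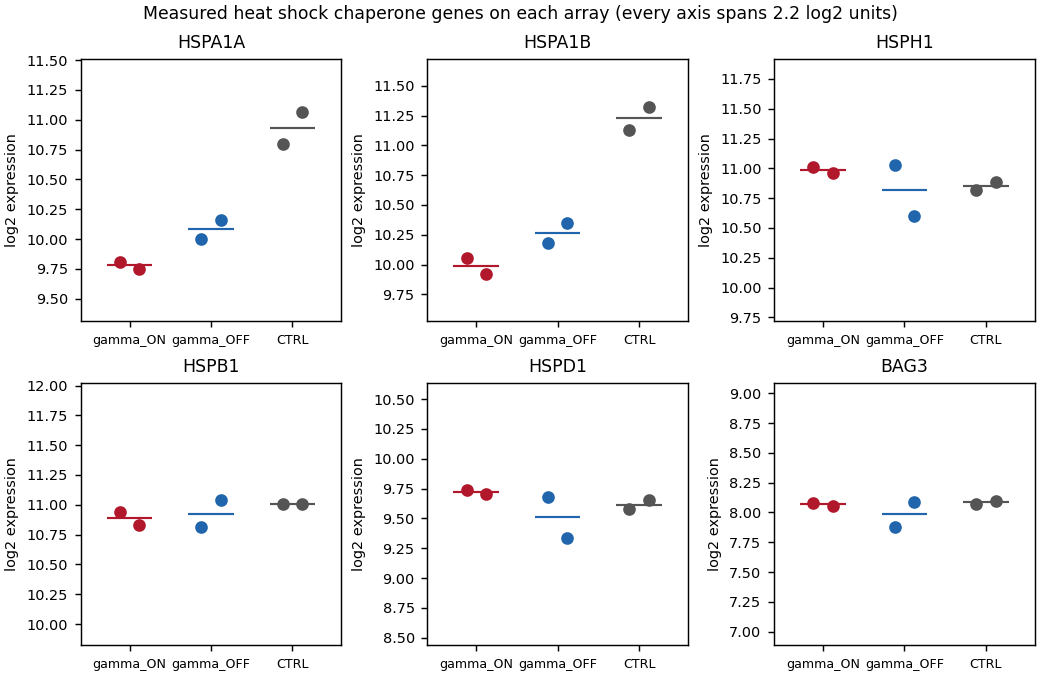
Log2 expression (vertical axes, each spanning 2.2 log2 units) of the 6 measured chaperone genes on each array (points), with group means (lines), for gamma_ON, gamma_OFF and CTRL clones. HSPA1A and HSPA1B stand apart by group, whereas the points of HSPH1, HSPB1, HSPD1 and BAG3 lie close together or are spread by 1 gamma_OFF array.

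For gamma_ON against CTRL, 2 of the 6 genes (HSPA1A and HSPA1B) were called lower at a limma adjusted p under 0.05 and 0 higher, where 1.55% of all genes were called, 0.806% as lower and 0.739% as higher. The groups did not overlap for 5 of the 6 genes, and did not overlap for 52.4% of all genes. For gamma_OFF against CTRL the same 2 genes were called lower, where 8.85% of all genes were called, 6.08% as lower and 2.77% as higher, and the groups did not overlap for 2 of the 6 genes and for 61.3% of all genes. For gamma_ON against gamma_OFF, 0 of the 6 were called, where 5.99% of all genes were called, 2.02% as lower and 3.98% as higher, and the groups did not overlap for 3 of the 6 genes and for 63.3% of all genes. The values behind these counts chose the genes, so nothing is read from them. The median log2 difference of the 6 genes was -0.07 for gamma_ON against CTRL, -0.10 for gamma_OFF against CTRL and 0.02 for gamma_ON against gamma_OFF, beside 0.02, 0.01 and 0.02 over all genes. The contrasts share arrays, so they are not independent of each other.

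As a description of the same counts, and with nothing read from it, single arrays changed which genes were called. For gamma_ON against CTRL, HSPA1B alone was called without gamma_ON replicate 1 and without CTRL replicate 2, and neither gene was called without gamma_ON replicate 2. For gamma_OFF against CTRL, neither was called without CTRL replicate 2. Without gamma_OFF replicate 1, the gamma_ON minus gamma_OFF difference was 0.385 for HSPH1 and 0.381 for HSPD1. In that setting far more of all genes were called too, and far fewer in the fits above that lost a call. The size for HSPA1A stayed between -1.29 and -1.01 for gamma_ON and between -0.99 and -0.71 for gamma_OFF with any 1 array left out.

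A wider look at protein folding genes used 8 lists, from which 53 of 103 genes were measured. For gamma_ON against CTRL, 1 of the 53 rose (BAG2), 1 fell (CHORDC1) and 51 did not pass the test, with a median log2 difference of 0.03 beside 0.02 over all genes, of which 1.55% were called. For gamma_OFF against CTRL, 0 rose, 2 fell (CHORDC1 and HSPA4L) and 51 did not pass, with a median of -0.16 beside 0.01 over all genes, of which 8.85% were called. For gamma_ON against gamma_OFF, 1 rose (BAG2), 0 fell and 52 did not pass, with a median of 0.16 beside 0.02 over all genes, of which 5.99% were called. The folding genes are brighter than most, and the median of all genes depends on the dim ones. With dim genes left out, the median of the 44 folding genes was -0.17 for gamma_OFF against CTRL, beside -0.10 over all genes, and 0.18 for gamma_ON against gamma_OFF, beside 0.17. The counts of the last 2 comparisons depended on single arrays, and in each a call was lost without some arrays other than gamma_OFF replicate 1. Without gamma_OFF replicate 1 more of the 53 were called, and more of all genes in about the same share. That rise was thus not particular to the folding genes.

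**Figure D3:**
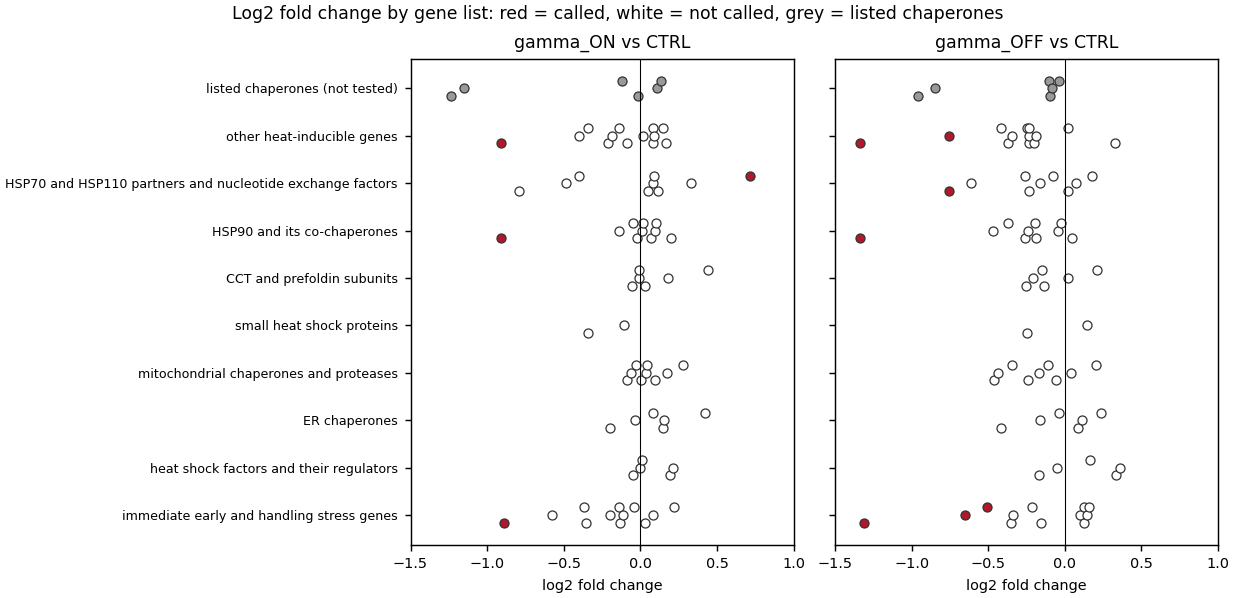
Log2 differences (horizontal axis) of the measured genes of each protein folding list (vertical axis) for gamma_ON against CTRL (left) and gamma_OFF against CTRL (right), with 1 point per gene, called genes in red, others in white, and the listed chaperones, which are described and not tested, in grey. The red points are few, 1 on each side of 0 among the folding genes for gamma_ON (BAG2 and CHORDC1) and both below 0 for gamma_OFF (CHORDC1 and HSPA4L, each in more than 1 list).

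CHORDC1, which encodes an HSP90 co-chaperone and is induced by heat, fell in both H2A.X groups. Its log2 levels were 6.76 and 6.68 in gamma_ON, 6.13 and 6.45 in gamma_OFF, and 7.58 and 7.68 in CTRL clones, so that all 4 H2A.X arrays lay below both CTRL arrays. The log2 difference was -0.91 (SE 0.14, limma adjusted p = 0.0155) for gamma_ON and -1.34 (SE 0.14, limma adjusted p = 0.00331) for gamma_OFF against CTRL. In CHORDC1 the gamma_OFF arrays were the lowest, whereas in HSPA1A and HSPA1B the gamma_ON arrays were, and its gamma_ON minus gamma_OFF difference of 0.43 did not pass the test (limma adjusted p = 0.0785). The gamma_ON call was lost without gamma_ON replicate 1, gamma_ON replicate 2, CTRL replicate 1 or CTRL replicate 2, where the limma adjusted p was 0.125, 0.134, 0.0721 and 0.15 in that order. The gamma_OFF call passed with any 1 array left out.

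HSPA4L, an HSP110 relative, fell in gamma_OFF clones. Its log2 levels were 7.55 and 7.39 in gamma_ON, 7.24 and 6.99 in gamma_OFF, and 7.83 and 7.91 in CTRL clones. The log2 difference from CTRL was -0.75 (SE 0.13, limma adjusted p = 0.0144) for gamma_OFF and -0.40 (limma adjusted p = 0.189) for gamma_ON. The gamma_OFF call was lost without gamma_OFF replicate 2 (limma adjusted p = 0.0535), CTRL replicate 1 (0.0771) or CTRL replicate 2 (0.114).

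BAG2, a nucleotide exchange factor that holds back the ubiquitin ligase CHIP, rose in gamma_ON clones. Its log2 levels were 8.37 and 8.41 in gamma_ON, 7.84 and 7.85 in gamma_OFF, and 7.62 and 7.72 in CTRL clones. The log2 difference was 0.72 (SE 0.11, limma adjusted p = 0.0197) for gamma_ON against CTRL, 0.18 (limma adjusted p = 0.317) for gamma_OFF against CTRL and 0.54 (limma adjusted p = 0.0381) for gamma_ON against gamma_OFF. The call against CTRL was lost when either gamma_ON or either CTRL array was left out, at a limma adjusted p of 0.131 to 0.157. The call against gamma_OFF was lost after quantile normalization (limma adjusted p = 0.0916), with arrays rescaled (0.0602), with array weights (0.0723) and without any 1 array other than gamma_OFF replicate 1, at up to 0.248.

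HSF1 itself was measured at 8.41 and 8.29 in gamma_ON, 8.27 and 8.43 in gamma_OFF, and 8.42 and 8.37 in CTRL clones, with overlapping groups. Its log2 difference was -0.05 for gamma_ON against CTRL (limma adjusted p = 0.908) and -0.05 for gamma_OFF against CTRL (limma adjusted p = 0.805), and the sign changed with the scaling and with the arrays in the fit. These are levels of its mRNA, whereas HSF1 is mainly controlled through its protein. HSF2 was not analysed here.

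HSPA6 and HSPA2, relatives of the inducible HSP70, passed no test against CTRL in the fit used for all genes. HSPA6, another heat-inducible HSP70, had log2 levels of 5.68 and 5.86 in gamma_ON, 5.64 and 6.25 in gamma_OFF, and 5.73 and 5.50 in CTRL clones. The log2 difference of HSPA6 from CTRL was 0.15 (limma adjusted p = 0.792) for gamma_ON and 0.32 (limma adjusted p = 0.281) for gamma_OFF. HSPA2, an HSP70 of the testis that other cells also express, had 7.97 and 7.63 in gamma_ON, 8.29 and 8.56 in gamma_OFF, and 8.46 and 8.72 in CTRL clones, with a log2 difference from CTRL of -0.79 (limma adjusted p = 0.0531) for gamma_ON and -0.16 (limma adjusted p = 0.51) for gamma_OFF. HSPA6 and HSPA2 were chosen after their values were seen. HSPA2 passed for gamma_ON against CTRL with a trended and robust spread model, array weights, dim genes left out, or only the groups compared. The last gave a limma adjusted p of 0.042. Leaving out either gamma_OFF array repeats that last fit, and HSPA2 passed under no other alternative.

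HSPA1L, the third HSP70 gene of that region, is transcribed away from HSPA1A, and its promoter window shares 241 bases with that of HSPA1A. Its log2 levels were 7.53 and 7.63 in gamma_ON, 7.80 and 7.83 in gamma_OFF, and 7.69 and 7.70 in CTRL clones. The log2 difference of HSPA1L from CTRL was -0.11 for gamma_ON and 0.12 for gamma_OFF (SE 0.11 each), neither past the test. Of the 10 genes nearest to HSPA1A and HSPA1B, 5 on each side, 4 had a named row (VWA7, VARS1, HSPA1L and NEU1) and 0 of these were called in any comparison, with log2 differences from CTRL between -0.11 and 0.33 for gamma_ON and between -0.05 and 0.38 for gamma_OFF. These neighbours were chosen after values were seen.

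Of the other lists, the 13 measured heat-inducible genes had a median log2 difference of -0.09 for gamma_ON and -0.24 for gamma_OFF against CTRL, with CHORDC1 called in gamma_ON, and CHORDC1 and HSPA4L in gamma_OFF. The 10 measured genes of HSP90 and its co-chaperones had medians of 0.01 and -0.22, with CHORDC1 called in each. The 9 measured partners and exchange factors of HSP70 had medians of 0.08 and -0.16, with BAG2 called in gamma_ON and HSPA4L in gamma_OFF. Of the 2 measured small heat shock proteins outside the listed genes and the 5 measured heat shock factors and regulators, 0 were called. Among the 6 prefoldin genes, whose products hand new actin and tubulin to the chaperonin CCT, 0 were called, and the largest difference was that of PFDN4 in gamma_ON (log2 0.44, limma adjusted p = 0.157). Of the 9 mitochondrial genes 0 were called, and the protease YME1L1 had log2 -0.47 in gamma_OFF against CTRL (limma adjusted p = 0.125). Of the 6 chaperone genes of the endoplasmic reticulum 0 were called, with SDF2L1 at log2 0.42 in gamma_ON (limma adjusted p = 0.115) and MANF, a secreted stress factor, at -0.42 in gamma_OFF (limma adjusted p = 0.0879). At an unadjusted p under 0.05, 10 of the 53 folding genes passed for gamma_ON against CTRL, 10 for gamma_OFF against CTRL and 14 for gamma_ON against gamma_OFF, where 14.8%, 30.4% and 33.0% of all genes passed.

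Of the genes that respond to handling and stress of a culture, a few fell and most did not pass the test. JUN, an immediate early transcription factor, had log2 levels of 7.57 and 7.38 in gamma_ON, 7.03 and 7.08 in gamma_OFF, and 8.32 and 8.41 in CTRL clones. It fell by 0.89 on the log2 scale in gamma_ON (limma adjusted p = 0.00929) and by 1.31 in gamma_OFF (limma adjusted p = 0.00237) against CTRL, and the gamma_ON call was lost without either gamma_ON or either CTRL array, at a limma adjusted p of 0.0596 to 0.121. Of the 12 measured genes of this list, 0 rose, 1 fell and 11 did not pass for gamma_ON against CTRL, where 1.55% of all genes were called. For gamma_OFF against CTRL, 0 rose, 3 fell and 9 did not pass, where 8.85% of all genes were called, and 5 of the 12 differences were above 0. The other genes that fell in gamma_OFF were IER3 (log2 -0.65, limma adjusted p = 0.028) and ATF3 (-0.51, limma adjusted p = 0.0465, named after its values were seen). The dimmest rows of IER3, which held the same values as each other, went the other way, at 0.20 for gamma_OFF against CTRL. The IER3 call was lost when all its rows were averaged (limma adjusted p = 0.213), after quantile normalization (0.097), with arrays rescaled (0.0716) and without either CTRL or either gamma_ON array (0.0577 to 0.158). The ATF3 call was lost after quantile normalization (limma adjusted p = 0.0551), with arrays rescaled (0.0629), with array weights (0.0752), with the replicate block (0.0543) and without any 1 array other than gamma_OFF replicate 1 (0.0763 to 0.272). The mean log2 level over the 12 genes was 7.92 and 7.85 in gamma_ON, 7.79 and 7.91 in gamma_OFF, and 8.08 and 8.10 in CTRL clones. The part of handling stress in the HSPA1A and HSPA1B values was not tested.

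Cell identity markers differed too. The mean log2 level over 13 of 15 pluripotency markers was 10.47 and 10.41 in gamma_ON, 10.47 and 10.48 in gamma_OFF, and 10.21 and 10.31 in CTRL clones, and POU5F1 rose by 0.71 on the log2 scale in gamma_ON against CTRL (limma adjusted p = 0.0441). That call was lost without either gamma_ON or either CTRL array (0.113 to 0.283), after quantile normalization (0.081) and with arrays rescaled (0.0762). Of the 13 markers 1 was called higher in gamma_OFF against CTRL, DNMT3B. Its log2 difference lay between 0.37 and 0.55 with any 1 array left out, and the call was lost in some alternatives. NANOG had a log2 difference of 0.25 in gamma_ON and 0.49 in gamma_OFF, and SOX2 of 0.24 and 0.21, none past the test. Over 6 of 14 fibroblast markers the mean was 7.93 and 7.88 in gamma_ON, 7.62 and 7.49 in gamma_OFF, and 7.89 and 7.71 in CTRL clones. Of these 6 markers, 3 had a log2 difference from CTRL above 0 in gamma_ON (median 0.09) and 1 in gamma_OFF (median -0.19). LUM, another of the 6, was called higher in gamma_ON than in gamma_OFF, where 5.99% of all genes were called. Its log2 difference stayed between 0.90 and 1.30 with any 1 array left out, but the call was not kept in all of these fits. Against CTRL 1 of the 6 fell in each comparison, TAGLN, an actin-binding protein of smooth muscle and fibroblasts. It had 8.52 and 8.52 in gamma_ON, 8.58 and 8.61 in gamma_OFF, and 9.16 and 9.13 in CTRL clones, the group order of HSPA1A. The log2 difference of TAGLN from CTRL was -0.62 for gamma_ON (limma adjusted p = 0.0304) and -0.55 for gamma_OFF (limma adjusted p = 0.0235). The gamma_ON call was lost without either gamma_ON or either CTRL array (0.187 to 0.243), and the gamma_OFF call was lost after either rescaling of the arrays (0.0511 and 0.0682) and without any 1 array other than gamma_OFF replicate 1 (0.053 to 0.143). Of 11 measured endoderm markers, 5 rose in gamma_ON and 1 rose and 4 fell in gamma_OFF, each against CTRL. Of 9 measured mesoderm markers, 5 rose in gamma_ON and 0 were called in gamma_OFF, each against CTRL. Of 12 measured neuroectoderm markers, 1 fell in gamma_ON and 3 fell in gamma_OFF against CTRL. Over all genes 1.55% were called for gamma_ON and 8.85% for gamma_OFF against CTRL. The part of such shifts in the chaperone values was not tested. The arrays were alike in level, with medians over all rows of 6.11 to 6.25, but gamma_OFF replicate 2 stood apart, with a correlation across genes of 0.969 to 0.986 with the other arrays and the narrowest spread over genes (SD 1.64, against 1.70 to 1.81).

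The genes whose levels followed those of HSPA1A and HSPA1B most closely were ranked by Pearson's r over the 6 arrays with the mean of both. The candidates were 5834 genes outside the listed chaperones whose values spanned at least 0.5 log2 units. Left out by name were uncharacterised loci, genes named as open reading frames, long intergenic and small RNA genes, olfactory receptors, and antisense and overlapping transcripts. The 5 highest were INSR, the insulin receptor (r = 0.991), STX3, a syntaxin of vesicle fusion (0.989), HBEGF, an EGF receptor ligand (0.989), ATG16L2, an autophagy protein relative (0.985), and CCN2, a target of YAP and TGF-beta signalling (0.984). These are descriptions over 6 arrays that share the 3 groups. CCN2 came nearest in size, with log2 levels of 9.94 and 9.73 in gamma_ON, 10.05 and 9.98 in gamma_OFF, and 10.90 and 11.01 in CTRL clones. The log2 difference of CCN2 from CTRL was -1.12 for gamma_ON and -0.94 for gamma_OFF, and those of the other 4 genes lay between -0.51 and -0.43 for gamma_ON and between -0.40 and -0.27 for gamma_OFF. These 5 genes were picked for following a pair that differs between the groups, so their differences are given with no test. Among the chaperones themselves, r over the 6 arrays was 0.997 between HSPA1A and HSPA1B, 0.966 between HSPH1 and HSPD1, and -0.32 between HSPA1A and HSPH1.

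**Figure D4:**
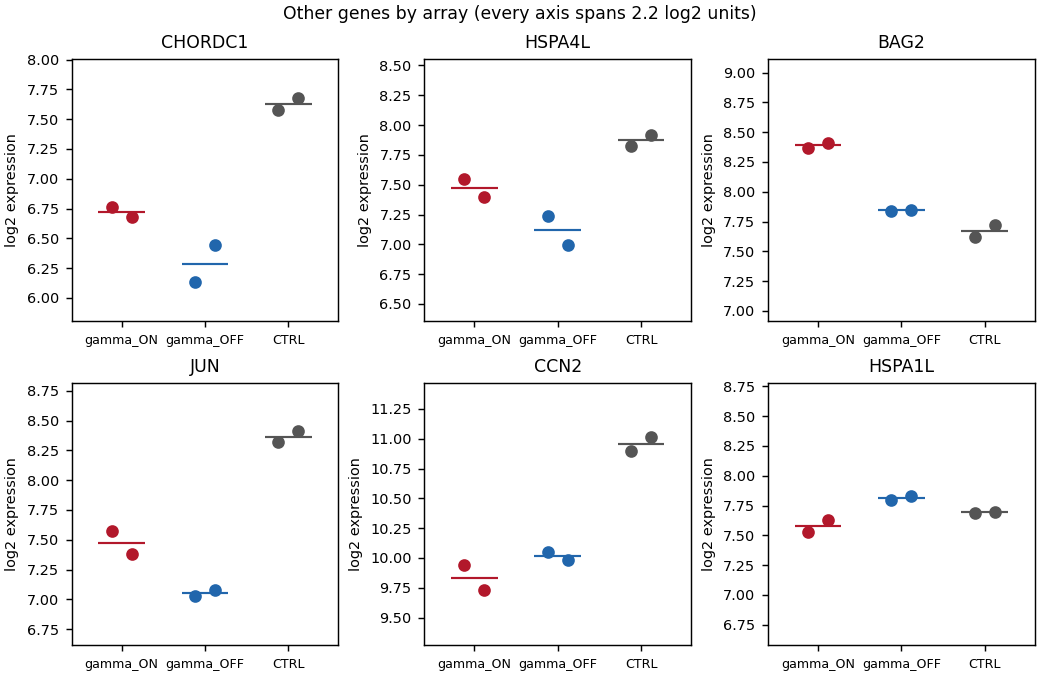
Log2 expression on each array (points) with group means (lines) for genes outside the listed chaperones, in gamma_ON, gamma_OFF and CTRL clones. CHORDC1, JUN and CCN2 are lower in both H2A.X groups than in CTRL clones, HSPA4L is lowest in gamma_OFF, BAG2 is highest in gamma_ON, and HSPA1L differs little.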

How the data were processed

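Gene expression was measured on Affymetrix HuGene-2.0-st arrays, 2 per group, grouped by the sample descriptions. Each deposited value is the log2 expression level of 1 array row in 1 sample; the submitters' processing notes name RMA and Partek 6.6, while genome build and options are not given there. Of 53617 rows, 16098 carried 1 gene symbol, 0 several, and 37519 are unnamed here; all 16098 matched the RefSeq gene table. For the 779 genes with several rows the brightest was used, which left 14884 genes.

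One limma 3.58.1 fit (lmFit and eBayes, R 4.3.3) over all 6 arrays, with 3 residual degrees of freedom, gave 3 two-sided contrasts, with Benjamini-Hochberg adjustment over all genes and calls at an adjusted p under 0.05. With 2 arrays a group, the smallest two-sided exact p is 0.333, so no exact test was run. In simulated data (gamma_ON against CTRL, 14884 genes), 100 genes were changed by 1 log2 unit and 100 by 2. Of these, 99% and 100% were recovered, with 15 false calls among the other genes. Changes under 1 log2 unit were not simulated. The simulated noise was normal, with the same spread on every array for a gene. It held no outlying array such as gamma_OFF replicate 2, so the share recovered may be lower on the real arrays. The number of arrays limits the precision.

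The genes and lists were chosen with earlier results of these data known. Genes named were, beside the listed chaperones and HSF1, up to 3 called genes of each folding list and comparison (where none, the largest difference), up to 2 of each marker and handling list, POU5F1, NANOG and SOX2, and the 5 most alike; values are printed for part of them. Alternatives varied the spread model, array weights, a filter on dim genes, which arrays entered, the choice of rows and the scaling. Replicate numbers did not pair the arrays: the deviations of same-numbered arrays correlated at 0.088, -0.0962 and -0.0735.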

Additional observations from a re-analysis of the deposited data

How the results depend on the processing

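HSPA1A and HSPA1B kept their sign in each comparison under every alternative run. The number of all genes called depended on the setting. For gamma_ON against CTRL it was 230, and 381 with a trended and robust spread model, 803 with array weights, 487 with only the groups compared, and 34 to 487 with 1 array left out, lowest without gamma_ON replicate 2. For gamma_OFF against CTRL it was 1317, and 767 with array weights, 567 with only the groups compared, and 131 (without CTRL replicate 2) to 3515 (without gamma_OFF replicate 1). For gamma_ON against gamma_OFF it was 892, and 1596 with a trended and robust spread model, 229 with array weights, 275 with only the groups compared, 1495 with dim genes left out, 469 after quantile normalization, 443 with arrays rescaled, and 49 (without gamma_ON replicate 1) to 4061 (without gamma_OFF replicate 1). The median of the 6 chaperone genes was -0.10 for gamma_OFF against CTRL, and 0.0287 after quantile normalization, 0.0151 with arrays rescaled and -0.26 to -0.0845 with 1 array left out. For gamma_ON against gamma_OFF it was 0.02, and -0.13, -0.20 and -0.087 to 0.0565 under the same alternatives. Differences that passed no test changed sign in places. HSF1 was 0.0171 for gamma_ON against CTRL without gamma_ON replicate 2, within -0.11 to 0.0171 with 1 array left out. HSF1 for gamma_OFF against CTRL was 0.0905 after quantile normalization, 0.0476 with arrays rescaled and 0.0312 without gamma_OFF replicate 1 (range -0.13 to 0.0312). For gamma_ON against gamma_OFF, HSF1 was -0.19 after quantile normalization, -0.11 with arrays rescaled, -0.0603 without gamma_ON replicate 1 and -0.0771 without gamma_OFF replicate 1 (up to 0.0826). For the same comparison, SOX2 was -0.0758 after quantile normalization, -0.293 with arrays rescaled and -0.0512 to 0.105 with 1 array left out. NANOG was -0.563 to 0.0825, highest without gamma_OFF replicate 2, and ATF3 was -0.165 to 0.0189, highest without gamma_ON replicate 1. The cause of these changes was not tested. Replicate numbers did not pair the arrays; with them as a replicate block, 210, 1245 and 871 genes were called in the comparisons in this order. CHORDC1 lies below the median gene and has no value where dim genes are left out. With 1 array left out, a lone array was assumed to vary like the other groups.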
